A study of Mus musculus with 9 samples.

Results

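The phase II conjugation enzymes described here are the glutathione transferases (Gst genes), the UDP-glucuronosyltransferases (Ugt genes) and the sulfotransferases (Sult genes) of mouse liver. They were chosen by name: 66 probes of 51 genes on the array carried a gene name of these families, whatever their signal. Of these, 54 probes of 44 genes had a signal that the scanner software called well above background on at least 3 of the 9 arrays. These 44 genes comprised 19 of 20 glutathione transferase genes, all 15 glucuronosyltransferase genes and 10 of 16 sulfotransferase genes, among 17632 features tested on the array. The 7 genes without such a probe were Gstt4, Sult2a3, Sult2a4, Sult2a5, Sult2a6, Sult2b1 and Sult6b1, and they were not tested.

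Each array held liver RNA of 1 male C57bl/6J mouse, 16 weeks old after 12 weeks on its diet, and there were 9 mice. The 3 chow mice ate normal chow, the 3 HFD mice ate a high-fat diet with 60% of its energy from fat, and the 3 HFD+APS mice ate that high-fat diet with Astragalus polysaccharides (APS, a plant extract) at 40 g per kg of diet. The 9 livers were picked from 24 mice by their histology and triglyceride results, so the spread within a group is that of selected livers. All values are log2 signals from which the 75th percentile of the same array was subtracted, so 0 is that percentile itself, and no probe's level is compared with that of another probe. A gene rose or fell where limma's adjusted p, taken over all 17632 features, was under 0.05, and p-values measure only the spread among 3 arrays a group.

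Phase II enzymes attach a polar group to drugs, steroids, bile acids, bilirubin and reactive compounds, which makes them easier to excrete. Glutathione transferases use glutathione and meet electrophiles, and sulfotransferases use the sulfate donor PAPS in the cytosol. Most enzymes counted here as glucuronosyltransferases use UDP-glucuronic acid in the endoplasmic reticulum. They were grouped by the name Ugt, and not all of them use that donor. The liver is the main site of all these reactions, and many of the genes respond to nuclear receptors such as CAR and PXR and to the stress regulator NRF2.

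The probes on which the results turn are shown first, because closely related genes are told apart only by such stretches. Each line gives bases 16 to 45 of a probe of 60 bases, 5′ to 3′, as deposited with the arrays.
Sult3a1: ccttgtgcctagattgttttccatgacata
Sult1e1: cacttccttgtgtctgaaattagagtagtc
Sult2a7: taccaggagaaaatggctggtttccctata
Gstm2: agtaagcagctaagccccatttggttctca
Gstp1, first probe: ctttctgtcctccccggaacatgtgaaccg
Gstp1, second probe: accctcatctacaccaactatgagaatggt
Gstp3: attcagacgcattgcccggcagtatcgcca
Ugt1a9: acatgcattttgctcctactttttaagaac
Ugt1a1: tttctgctgcgcgtggtcaaaatatatatg
Ugt1a6b, first probe: atgaaaaccaaagtatgttctaaggcaagt
Ugt1a6b, second probe: gagagtacaggaacagcatgcttgtcttgg
Over 2329 pairs of probes of different genes, among all 66 member probes and the probes of 3 relatives outside the name rule, aligned without gaps over at least 30 bases, the highest identity was 75%, between Gstm5 and Gstm6, and no pair reached 80%. Probes were compared with each other and not with transcripts. A probe can therefore still read a related transcript, whether or not that transcript has a probe of its own. Values of the Gstm, Gsta, Gstp, Ugt2b and Sult2a genes are uncertain to that extent.

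In the files' mm9 positions, the Sult3a1 probe lay at chr10:33599244-33599303 and the Sult1e1 probe at chr5:88005187-88005246. The Sult2a7 probe lay at chr7:15050514-15050573 and the Gstm2 probe at chr3:107784622-107784681. The first Gstp1 probe lay at chr19:4035486-4035545, and the second spanned chr19:4035908-4036723, across more than its own length. The Ugt1a9 probe lay at chr1:89968031-89968090. Whether these positions are exonic, intronic or in a UTR was not determined here.

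HFD 3 stood apart from the other arrays, which bears on every comparison below. It held the lowest of the 9 values for 25 of the 44 genes (56.8%), against 19.5% of the 17627 features with a value on every array. By family these were 12 of 19 glutathione transferases, 10 of 15 glucuronosyltransferases and 3 of 10 sulfotransferases. The median over the 44 genes, each centred on its own mean of the 9 arrays, was -0.50 on HFD 3 and between -0.05 and 0.14 on the other 8 arrays, while the median over all features was -0.06 on HFD 3. The summed signal of 4 measured neutrophil markers of 5 was 47.9 on HFD 3, against 4.42 and 7.02 on the other HFD arrays, 1.39 to 6.27 on chow and 2.72 to 8.51 on HFD+APS. That of 5 cholangiocyte markers was 45.4 on HFD 3 and 5.61 to 8.06 on the other 8 arrays. Most of it came from Spp1, at 5.44 on HFD 3, while the defining markers Krt19, at -2.70, Krt7, at -1.93, and Epcam, at -3.49, lay within their range over the other arrays. The summed signal of 6 hepatocyte markers was 1231 on HFD 3, within the range of 1212 to 1607 over the 9 arrays. In bulk liver, fewer cells of a type and less RNA per cell cannot be told apart, and the part of other cells in the low values of HFD 3 was not tested.

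**Figure D1:**
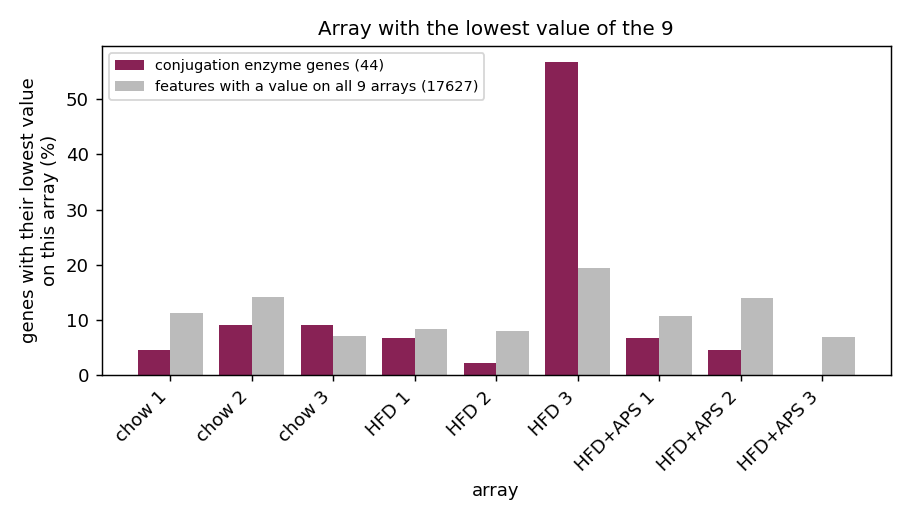
Bars give, for each array on the horizontal axis, the percent of the 44 conjugation enzyme genes and of 17627 features whose lowest value of the 9 was on that array. HFD 3 holds 56.8% of the conjugation enzyme genes and 19.5% of the features.

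**Figure D2:**
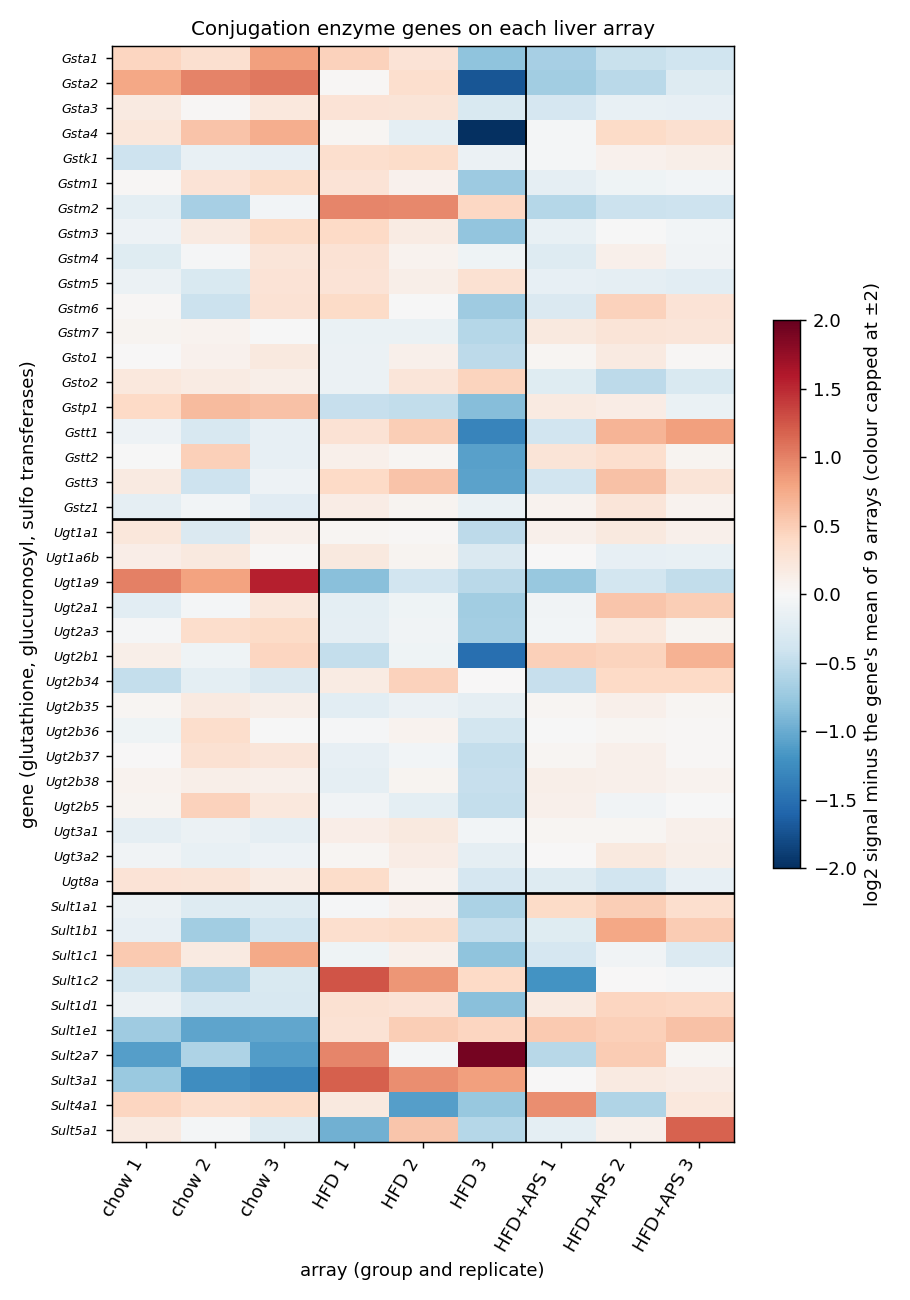
Each row is 1 of the 44 genes, grouped by family, and each column is 1 array; colour is the log2 signal minus the gene's mean over the 9 arrays, capped at 2 in either direction. The HFD 3 column is low for most glutathione transferases and glucuronosyltransferases, while Sult3a1, Sult1e1 and Sult2a7 are low on the 3 chow arrays.

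In HFD livers, single enzymes of each family differed from chow, in both directions. In all, 3 sulfotransferases (Sult3a1, Sult1e1 and Sult2a7) and the glutathione transferase Gstm2 rose, and Gstp1 and the glucuronosyltransferase Ugt1a9 fell. These 6 of 44 genes make 13.6%, where 10.8% of all features passed the same threshold, so the share was near the background. By direction, 4 of the 44 rose, where 759 of 17632 features did (4.3%), and 2 of the 44 fell, where 1142 of 17632 did (6.48%). The median log2 difference was -0.07 for the glutathione transferases, -0.29 for the glucuronosyltransferases and 0.33 for the sulfotransferases, against -0.05 over all features. Without HFD 3 the median of the glutathione transferases turned to 0.12. All chow arrays were on 1 slide, where 61.5% to 68.4% of probes were well above background, and all HFD arrays on another, where 50.4% to 53.9% were, so slide and diet cannot be told apart here. Markers of other liver cells differed between the same groups: 2 of 5 monocyte-derived macrophage markers rose (summed signal 11.3 to 11.7 on chow and 23.6 to 30 on HFD), as did 2 of 6 stellate cell markers (6.85 to 11.6 and 13 to 17.5) and 2 of 6 endothelial markers (23.1 to 36.4 and 47.7 to 57.5), and 1 of 6 hepatocyte markers fell. The 6 Kupffer cell markers measured of 7 had no call, with a summed signal of 32.7 to 47.8 on chow and 53 to 84.1 on HFD. The part of these cells in the results was not tested.

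Sult3a1, a sulfotransferase known for its sex-dependent expression in mouse liver, had values of -3.97, -4.48 and -4.54 on chow and of -2.04, -2.31 and -2.42 on HFD. The groups did not overlap, but the signal was well above background on only 1 of the 3 chow arrays, so the probe entered the test through the HFD and HFD+APS arrays. The measured difference was 2.07 ± 0.17 (SE, adjusted p = 0.00154), and no fold is given against a chow level mostly at background.
Sult1e1, the estrogen sulfotransferase, had values of -2.76, -3.11 and -3.09 on chow and of -1.76, -1.56 and -1.63 on HFD. Every HFD array lay above every chow array, by 1.34 ± 0.12 in the mean (2.53-fold, adjusted p = 0.00203). Both genes were dim, and with another background correction (normexp) their differences shrank to 0.67 and 0.56 while staying past the threshold.

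Sult2a7 belongs to the family of hydroxysteroid and bile acid sulfotransferases. Its values were 0.54, 1.02 and 0.53 on chow and 2.62, 1.61 and 3.55 on HFD, with HFD 3 the highest of all arrays, unlike most members. The groups did not overlap, and the difference was 1.90 ± 0.47 (3.72-fold, adjusted p = 0.0399). This call was lost without any 1 of the 3 chow arrays, HFD 1, HFD 3 or HFD+APS 3, with an adjusted p of up to 0.104. Without HFD 3 the difference was 1.42. Sult1c2, a phenol sulfotransferase, had values of 0.72, 0.42 and 0.76 on chow and of 2.33, 1.95 and 1.47 on HFD. They did not overlap, but the difference of 1.28 ± 0.35 missed the threshold (adjusted p = 0.0511).

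The other sulfotransferases did not pass. Of all 10, 4 had HFD values wholly above chow, where 16.1% of all features did, and 2 wholly below, where 22.6% did. The 2 below were Sult1c1 (-0.75 ± 0.25, adjusted p = 0.0865) and Sult4a1 (-0.94 ± 0.42, adjusted p = 0.168). The Sult4a1 signal was well above background on only 1 of the 3 HFD arrays. Sult1a1, the main phenol sulfotransferase, had values of 6.81, 6.66 and 6.66 on chow and of 6.90, 7.01 and 6.29 on HFD. Sult1b1, which sulfates thyroid hormones, had values of 3.21, 2.68 and 2.98 on chow and of 3.71, 3.75 and 2.90 on HFD. Sult1d1, which sulfates catecholamines and related amines, had values of 3.78, 3.58 and 3.58 on chow and of 4.20, 4.17 and 3.06 on HFD. In each of these 3 genes HFD 3 lay apart from HFD 1 and HFD 2 and the groups overlapped. Without HFD 3 the family's median difference was 0.66 in place of 0.33. Sult5a1 spread widely, with values of 1.80, 1.57 and 1.36 on chow and of 0.66, 2.17 and 1.04 on HFD.

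**Figure D3:**
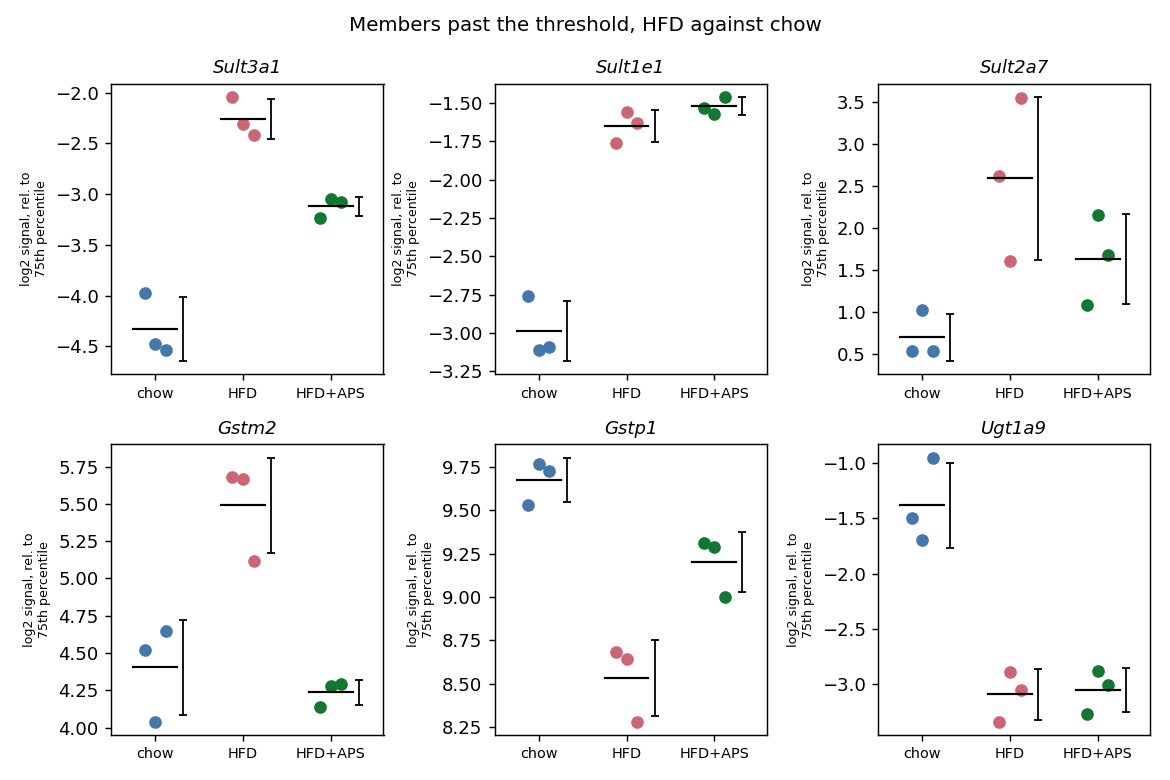
Points are the 3 arrays of each diet group for the 6 genes that passed the threshold in HFD against chow, as log2 signal above or below the 75th percentile of its array; horizontal lines are means and bars beside them SD, and each panel has its own scale. Sult1e1 lies between -1.76 and -1.46 on all HFD and HFD+APS arrays, above chow, whereas Gstm2 lies between 4.14 and 4.29 on HFD+APS, near the chow values.

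Among the glutathione transferases, Gstp1, the abundant Pi-class enzyme of male mouse liver, had values of 9.53, 9.77 and 9.73 on chow and of 8.68, 8.64 and 8.28 on HFD. The groups did not overlap. The fall was -1.15 ± 0.15 (2.21-fold, adjusted p = 0.00777), and the second probe, with the values 7.39, 7.77 and 8.01 on chow and 6.22, 6.03 and 5.70 on HFD, gave -1.74 ± 0.23 (adjusted p = 0.00861 with each probe tested). The 2 probes fell together and differed in the size of the fall.

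Gstm2, a Mu-class enzyme, had values of 4.52, 4.04 and 4.65 on chow and of 5.68, 5.67 and 5.12 on HFD. Every HFD array lay above every chow array, by 1.09 ± 0.20 (2.13-fold, adjusted p = 0.0192). The call was lost without HFD 2 (adjusted p = 0.0582) or without chow 2 (0.0588). The neighbouring Mu-class genes did not pass. Gstm1 had values of 9.12, 9.38 and 9.49 on chow and of 9.38, 9.19 and 8.38 on HFD, and Gstm3 had values of 7.88, 8.16 and 8.37 on chow and of 8.38, 8.14 and 7.19 on HFD. In both, only HFD 3 lay below the chow range. For Gstm6 the 2 probes disagreed, with -0.07 ± 0.32 for the brighter and -1.62 ± 0.51 for the other, and neither passed.

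Gstp3, a Pi-class relative listed under an older name and so outside the name rule, had values of -0.34, -0.82 and -0.14 on chow and of 0.90, 0.62 and 0.64 on HFD. Its difference of 1.16 ± 0.27 (adjusted p = 0.0349) ran opposite to that of Gstp1. The call was lost without any 1 chow array, any 1 HFD array or HFD+APS 3, with an adjusted p of up to 0.108. Sult2a8, also listed under an older name, had no call, with -0.20 ± 0.23 in HFD against chow and 0.75 ± 0.23 in HFD+APS against HFD, and Sult3a2 was well above background on 1 array and was not tested.

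The Alpha-class genes Gsta1, Gsta2 and Gsta4, whose enzymes handle lipid peroxidation products among other substrates, had no call. Gsta2 had values of 2.23, 2.46 and 2.52 on chow and of 1.49, 1.80 and -0.25 on HFD (-1.39 ± 0.46, adjusted p = 0.0876). Gsta4 had values of 0.99, 1.34 and 1.49 on chow and of 0.81, 0.57 and -1.26 on HFD (-1.23 ± 0.48, adjusted p = 0.128). In both genes the groups did not overlap and HFD 3 lay far below the other 2 HFD arrays; without it the differences were -0.76 and -0.58. Gsta1 had values of 3.56, 3.45 and 3.94 on chow and of 3.59, 3.40 and 2.32 on HFD, which overlapped. Among the Theta and Zeta classes, Gstt3 had values of 4.73, 4.13 and 4.44 on chow and of 4.94, 5.12 and 3.47 on HFD. Gstz1, which also works in tyrosine breakdown, had values of 5.71, 5.84 and 5.67 on chow and of 6.04, 5.95 and 5.76 on HFD.

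**Figure D4:**
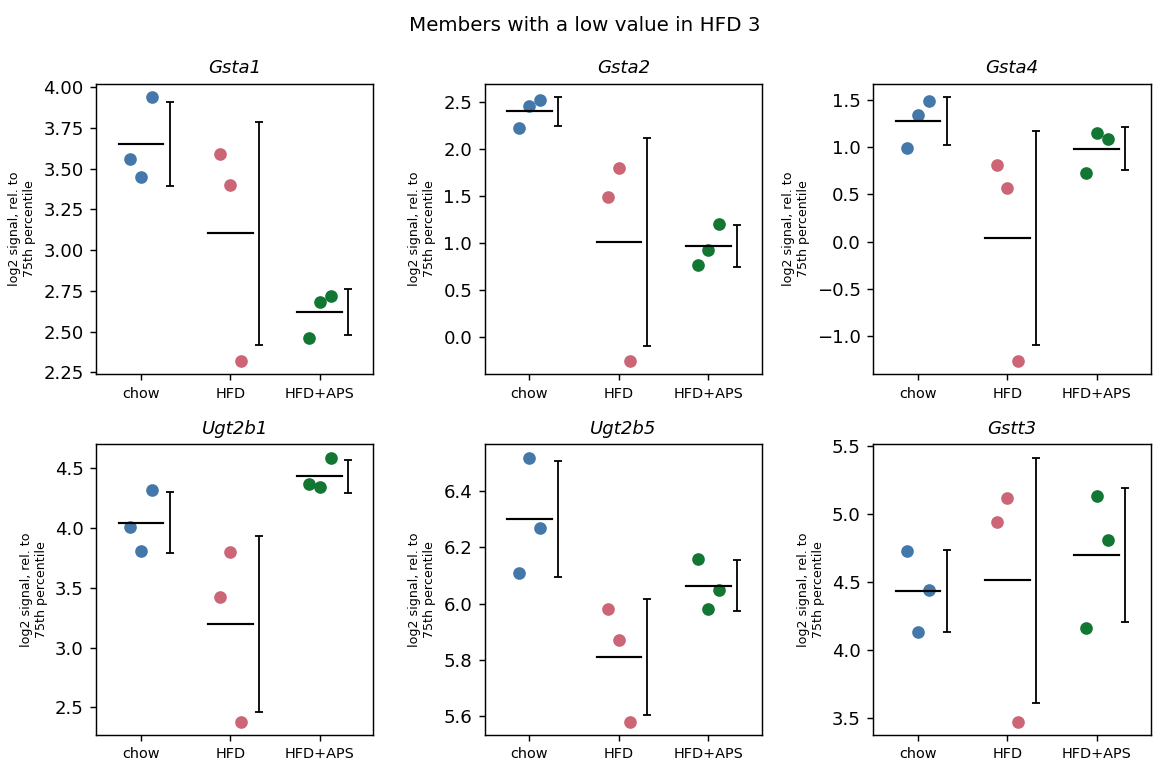
Points are the 3 arrays of each diet group for 6 genes picked, after their values were seen, because HFD 3 holds their lowest value; the vertical axis is log2 signal above or below the 75th percentile of its array, lines are means and bars SD. Gsta4 is at -1.26 on HFD 3 and between 0.57 and 1.49 on the other 8 arrays.

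Ugt1a9, a glucuronosyltransferase of phenols and fatty acids, had values of -1.50, -1.70 and -0.95 on chow and of -3.34, -2.89 and -3.05 on HFD. The groups did not overlap, and the fall was -1.71 ± 0.21 (3.28-fold, adjusted p = 0.00674); the signal was well above background on 2 of the 3 HFD arrays. With the normexp background correction it was -0.71, still past the threshold. The other measured genes of the Ugt1 locus did not pass. Ugt1a1, the bilirubin-conjugating enzyme, had values of 2.62, 2.10 and 2.50 on chow and of 2.43, 2.42 and 1.87 on HFD (-0.17 ± 0.19, adjusted p = 0.582). The brighter Ugt1a6b probe gave -0.13 ± 0.14 and the second 0.26 ± 0.20. Ugt1 transcripts join their own first exon to exons that all of them share. The probes for Ugt1a9 and Ugt1a1 and the brighter Ugt1a6b probe lie in that order along chr1, at 89968031, 90108880 and 90115472, and which transcripts the last one reads was not determined.

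The Ugt2 genes, which glucuronidate steroids, bile acids and drugs, had no call. Of all 15 glucuronosyltransferases, 12 had a negative difference and 7 had HFD values wholly below chow, where 22.6% of all features did. Besides Ugt1a9 these were Ugt2a3, Ugt2b1, Ugt2b5, Ugt2b35, Ugt2b37 and Ugt2b38. Ugt2b1 had values of 4.01, 3.81 and 4.32 on chow and of 3.42, 3.80 and 2.38 on HFD (-0.85 ± 0.33, adjusted p = 0.124). Ugt2b5 had values of 6.11, 6.52 and 6.27 on chow and of 5.98, 5.87 and 5.58 on HFD (-0.49 ± 0.15, adjusted p = 0.0671). HFD 3 was the lowest array in both. Without HFD 3 the family's median difference was -0.13 in place of -0.29. Ugt2b34 and Ugt3a1 had HFD values wholly above chow, with differences of 0.54 ± 0.24 and 0.25 ± 0.10 that did not pass. Values wholly above chow were found for 16.1% of all features.

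**Figure D5:**
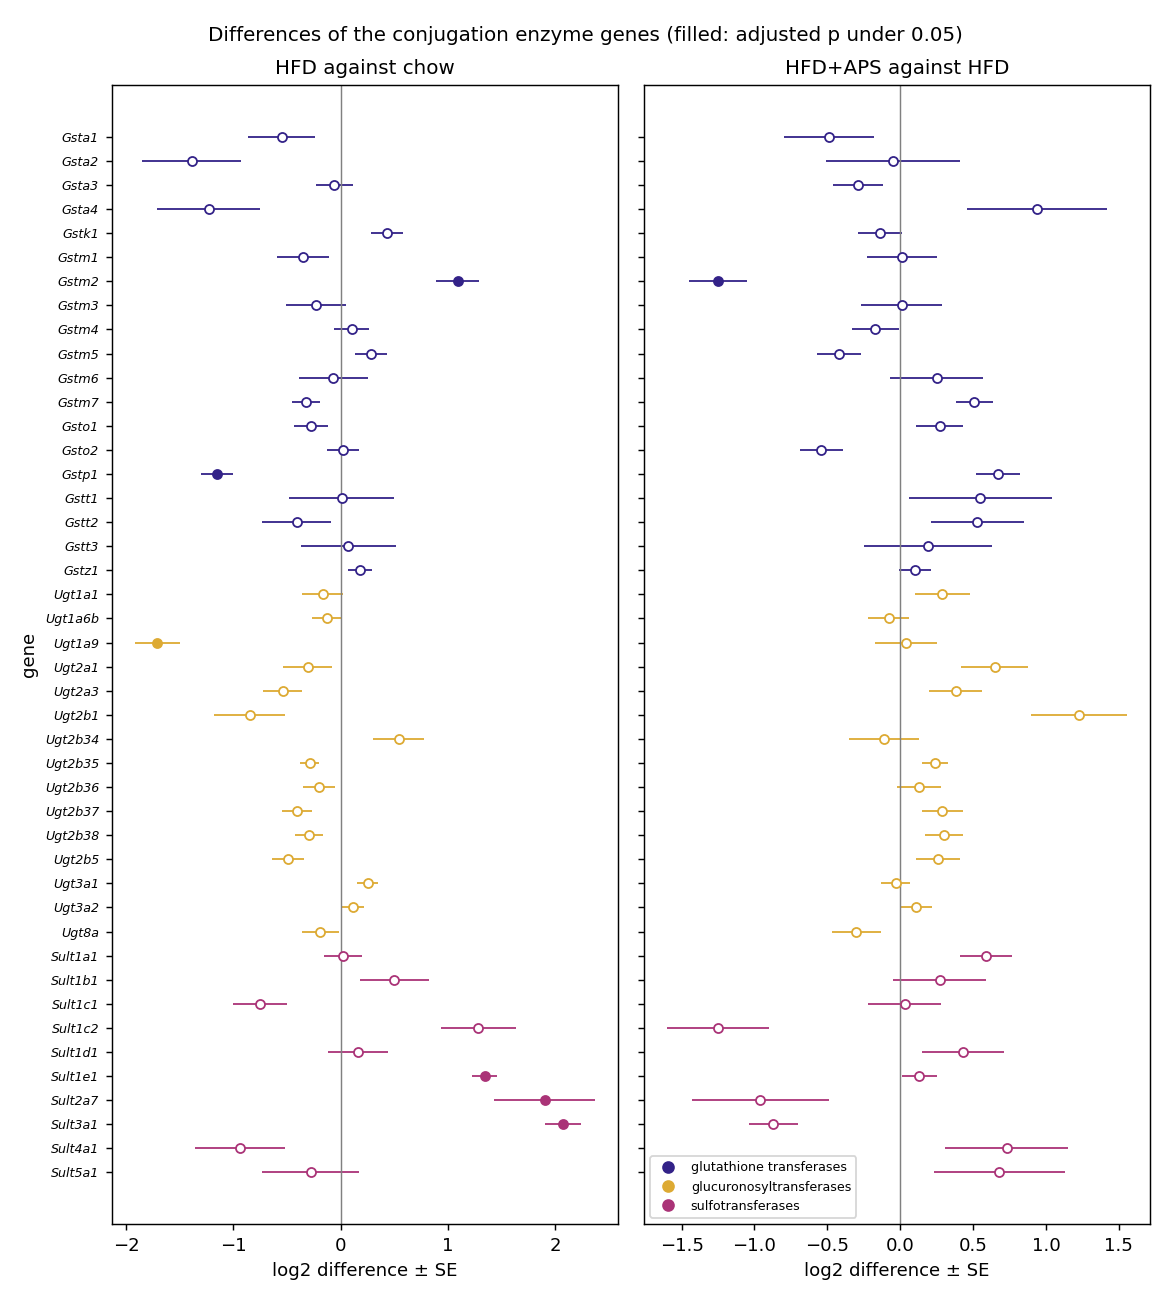
Points are log2 differences of the 44 genes with their SE, for HFD against chow on the left and HFD+APS against HFD on the right; filled points have an adjusted p under 0.05. On the left 6 points are filled, from -1.71 for Ugt1a9 to 2.07 for Sult3a1, and on the right only Gstm2, at -1.25, is filled.

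Between livers of mice on the high-fat diet with Astragalus polysaccharides and on that diet alone, 1 of the 44 genes passed: Gstm2 was lower with the polysaccharides. That is 2.27% of the genes, where 1.38% of all features passed, and by direction 0.437% passed as higher and 0.947% as lower. This comparison shares the HFD arrays with the one against chow, so opposite signs in the 2 are not independent. Gstm2 had values of 4.14, 4.28 and 4.29 on HFD+APS, below all of its HFD values, and the difference was -1.25 ± 0.20 (2.38-fold, adjusted p = 0.0309). Leaving out chow 1, chow 3, HFD 1, HFD 2 or the HFD+APS arrays 2 or 3 ended the call, with an adjusted p of up to 0.0968. On the slide that held the HFD arrays, HFD+APS 1 was the only array of its group, and it lay below the HFD mean by -1.35 (adjusted p = 0.162 with slide as a fixed block). With 1 array in that group, the missed threshold says nothing about stability.

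Other members lay apart from their HFD values without passing. Sult3a1 had values of -3.23, -3.05 and -3.08 on HFD+APS, all between its chow and HFD values (-0.87 ± 0.17 against HFD, adjusted p = 0.0555). Gstp1 had values of 9.31, 9.29 and 9.0, also between those groups (0.67 ± 0.15, adjusted p = 0.0713). Sult1c2 had values of -0.13, 1.08 and 1.05, all below HFD (-1.25 ± 0.35, adjusted p = 0.123). Sult2a7, at 1.08, 2.15 and 1.68, overlapped with HFD. Sult1e1 and Ugt1a9 also overlapped with their HFD values: Sult1e1 had values of -1.53, -1.57 and -1.46 (0.13 ± 0.12) and Ugt1a9 of -3.27, -2.88 and -3.01 (0.04 ± 0.21).

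The glucuronosyltransferases had no call in this comparison by limma, and 3 of 15 had an unadjusted p under 0.05, as did 3122 of all 17632 features. Of the 15, 11 had a positive difference, and 8 had HFD+APS values wholly above HFD, where 12.6% of all features did. Ugt2b1 had values of 4.37, 4.34 and 4.59 on HFD+APS (1.23 ± 0.33, adjusted p = 0.111). Ugt2a1, an enzyme first known from the olfactory epithelium, had values of 1.79, 1.97 and 2.23 on chow, of 1.81, 1.92 and 1.31 on HFD and of 1.93, 2.56 and 2.50 on HFD+APS (0.65 ± 0.23, adjusted p = 0.191). Ugt2b5 had values of 6.16, 5.98 and 6.05, the lowest of which equals the highest HFD value to 2 decimals. The family median was 0.24, against 0.00 over all features, and between 0.10 and 0.26 when each array was left out in turn. HFD 3 was the lowest HFD array for 36 of the 44 members, a larger share than the 46.4% of all features. Markers of other cells also differed in level between these groups, with no marker past the threshold: the summed signal of 5 monocyte-derived macrophage markers was 23.6 to 30 on HFD and 11.2 to 21.7 on HFD+APS, that of 4 neutrophil markers 4.42 to 47.9 and 2.72 to 8.51, and that of the 1 adipocyte marker measured of 4 was 2.6 to 20.7 and 0.216 to 0.322. Their part in these differences was not tested.

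The sulfotransferases had no call by limma either, with 3 of 10 at an unadjusted p under 0.05, against 3122 of all 17632 features. Sult1a1, at 7.30, 7.41 and 7.26 on HFD+APS, lay wholly above HFD (0.59 ± 0.18, adjusted p = 0.152). Sult1b1 had values of 3.13, 4.16 and 3.89, Sult1d1 of 4.08, 4.33 and 4.32 and Sult5a1 of 1.42, 1.71 and 2.79, and all of these overlapped with HFD. Among the glutathione transferases, Gsta4 had values of 0.72, 1.15 and 1.08 (0.94 ± 0.48, adjusted p = 0.351), Gstt3 of 4.16, 5.13 and 4.81, and Gstz1 of 5.96, 6.14 and 5.96. Gstm1, at 8.92, 9.02 and 9.04, and Gstm3, at 7.83, 7.97 and 7.93, lay inside their HFD range.

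Between HFD+APS and chow 3 genes passed: Sult1e1 and Sult3a1 were higher in HFD+APS livers and Ugt1a9 was lower. That is 6.82% of the 44 genes, where 3.57% of all features passed. By direction, 2 of the 44 rose, where 161 of 17632 features did (0.913%), and 1 of the 44 fell, where 468 of 17632 did (2.65%). The difference was 1.47 ± 0.12 for Sult1e1 (2.77-fold, adjusted p = 0.00416). It was 1.21 ± 0.17 for Sult3a1 (adjusted p = 0.0174, again with chow mostly at background) and -1.67 ± 0.21 for Ugt1a9 (3.19-fold, adjusted p = 0.0141). The Sult3a1 call ended when array 2 or 3 of chow or of HFD+APS was left out (highest adjusted p 0.0888), and with the normexp correction, where the difference was 0.31 (adjusted p = 0.0951). The Ugt1a9 call ended without HFD+APS 2 (adjusted p = 0.0517) and without HFD+APS 3 (0.0513), and with normexp the Sult1e1 and Ugt1a9 differences were 0.62 and -0.80. The chow and HFD+APS arrays were on different slides. Levels of cell markers differed between these groups too, with none past the threshold. The summed signal of 6 endothelial markers was 23.1 to 36.4 on chow and 50.2 to 58.6 on HFD+APS. That of 6 Kupffer cell markers was 32.7 to 47.8 and 41.2 to 88.9. For 6 hepatocyte markers it was 1483 to 1607 and 1212 to 1567. The part of these cells in the calls was not tested.

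The Alpha-class genes Gsta2 and Gsta1 had the most negative differences of the 19 glutathione transferases in this comparison. Gsta1 had values of 2.46, 2.68 and 2.72 on HFD+APS, all below chow (-1.03 ± 0.31, adjusted p = 0.0957). Gsta2 had values of 0.77, 0.93 and 1.21, also all below chow (-1.44 ± 0.46, adjusted p = 0.111). Neither passed in the unweighted fit of 9 arrays. Both passed with array weights (adjusted p = 0.00672 and 0.015), with only the 2 groups compared (0.0415 and 0.0259) and when HFD 3 was left out (0.0247 and 0.0156). Of all 17632 features, these 3 fits called 5020, 346 and 668 in that order, against 629 in the unweighted fit of 9 arrays. HFD 3 enters this comparison only through the shared estimate of the spread, so without it the differences stayed at -1.03 and -1.44. The fit without HFD 3 also called Sult1a1 and Sult1d1 higher, which made 7 members in place of 3. No glutathione transferase passed in limma's unweighted fit of the 3 groups, where 5 of 19 had an unadjusted p under 0.05, as did 4409 of all 17632 features. With array weights Gsta3, Gsto2, Gstp1 and Gstz1 passed beside Gsta1 and Gsta2. Ugt8a, a galactosyltransferase of the same family, was near background, with values of -3.87, -3.89 and -3.98 on chow, of -3.77, -4.08 and -4.48 on HFD and of -4.40, -4.52 and -4.30 on HFD+APS (-0.50 ± 0.17, adjusted p = 0.127). Its signal was well above background on 1 HFD+APS array and on no HFD array. Ugt1a1 had values of 2.49, 2.59 and 2.50 on HFD+APS, and Ugt3a1 had values of 4.87, 4.93 and 4.86 on chow, 5.18, 5.24 and 4.99 on HFD and 5.08, 5.09 and 5.15 on HFD+APS.

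Promoters are shown for Gstp1 and for 3 Alpha-class genes, from RefSeq on GRCm38.p6, from 250 bases before to 50 after the start. Capitals mark a match to 1 of 2 motifs, searched on both strands: TGACNNNGC, the core of the antioxidant response element, and GCGTG, that of the xenobiotic response element.
Gstp1, chr19:4037863-4038162, minus strand: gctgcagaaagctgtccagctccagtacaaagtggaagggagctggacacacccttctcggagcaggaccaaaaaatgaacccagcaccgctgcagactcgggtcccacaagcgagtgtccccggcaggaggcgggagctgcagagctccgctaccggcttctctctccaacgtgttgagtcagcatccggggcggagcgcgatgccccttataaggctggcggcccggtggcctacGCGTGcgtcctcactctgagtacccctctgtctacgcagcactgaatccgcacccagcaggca
Gsta1, chr9:78230419-78230718, plus strand: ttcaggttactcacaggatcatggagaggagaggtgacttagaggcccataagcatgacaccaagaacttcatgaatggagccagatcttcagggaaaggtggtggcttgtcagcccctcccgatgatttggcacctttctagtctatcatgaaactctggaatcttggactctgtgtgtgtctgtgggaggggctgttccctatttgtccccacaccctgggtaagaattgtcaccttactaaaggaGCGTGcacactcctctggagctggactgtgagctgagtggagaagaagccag
Gsta2, chr9:78347096-78347395, minus strand: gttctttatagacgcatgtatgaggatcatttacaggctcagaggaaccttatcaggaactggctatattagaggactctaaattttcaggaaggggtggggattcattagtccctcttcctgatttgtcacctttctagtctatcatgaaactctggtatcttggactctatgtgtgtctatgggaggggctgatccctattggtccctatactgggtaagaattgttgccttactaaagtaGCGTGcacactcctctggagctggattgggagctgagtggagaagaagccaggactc
Gsta3, chr1:21240335-21240634, plus strand: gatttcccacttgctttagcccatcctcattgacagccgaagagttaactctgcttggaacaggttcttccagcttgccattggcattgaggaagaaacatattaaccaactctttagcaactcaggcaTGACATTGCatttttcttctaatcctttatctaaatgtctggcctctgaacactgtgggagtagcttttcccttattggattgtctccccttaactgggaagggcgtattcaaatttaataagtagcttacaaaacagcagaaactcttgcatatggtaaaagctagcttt
Of 47 promoters of 38 of the 44 genes, 3 (6.4%) held TGACNNNGC and 9 (19.1%) held GCGTG, against 12.4% and 32.4% of 32851 promoters. The 2 Alpha-class genes with the lowest HFD+APS values relative to chow each hold GCGTG at the start: the match begins at -7 and ends before it in Gsta2, and begins at -2 and spans it in Gsta1. Their promoters were 51.2% identical over 295 bases aligned without gaps. Other members with GCGTG went both ways in HFD+APS against chow, none past the threshold in the main fit. Sult1b1 (0.77 ± 0.32) and Sult1d1 (0.60 ± 0.28) had positive differences, and Gstm1, Gstm5, Gstp1 and Ugt8a negative ones. Gsta3, with a TGACNNNGC match at -121, had no call, with values of 9.0, 8.85 and 9.03 on chow, 9.10, 9.08 and 8.51 on HFD and 8.49, 8.68 and 8.65 on HFD+APS. Only these exact forms were searched, so other forms of either motif were neither counted nor marked. A match is a description of letters and not of binding.

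Genes that supply the cosubstrates or work beside these enzymes were read from the same fit. In glutathione supply, 3 of 11 genes passed in HFD against chow, where 10.8% of all features did. Cbs and Cth, the enzymes that turn homocysteine into cysteine, fell by 1.03 ± 0.12 (adjusted p = 0.00496) and by 0.86 ± 0.18 (0.0265), and Ggct, which breaks down gamma-glutamyl peptides, rose by 1.04 ± 0.19 (0.0173). In HFD+APS against HFD 2 of the 11 passed, where 1.38% of all features did. Cth was higher by 1.33 ± 0.18 (adjusted p = 0.0181) and Cbs by 0.74 ± 0.12 (0.0294). The Cbs fall on HFD kept its call without each array in turn. The Cth fall was lost without chow 1, chow 2 or any 1 HFD array (up to 0.0742) and Ggct without chow 2 or HFD 2 (up to 0.0619). Against HFD, the Cth rise ended when array 1 or 3 of HFD or array 2 or 3 of HFD+APS was left out (highest adjusted p 0.0619). The Cbs rise ended without each HFD array in turn and without array 2 or 3 of HFD+APS (highest adjusted p 0.0881).

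None of 6 genes of UDP-glucuronic acid supply passed by limma in HFD against chow, where none had an unadjusted p under 0.05 either. Ugdh, which makes UDP-glucuronic acid, differed by 0.19 ± 0.14 and Ugp2 by 0.34 ± 0.29. Of 7 genes of PAPS supply none passed and 1 had an unadjusted p under 0.05: Papss1, a PAPS synthase, differed by 0.48 ± 0.13 (adjusted p = 0.0552). Of 17 regulators none passed, and none had an unadjusted p under 0.05. Of all 17632 features, 5511 had one in this comparison. Of 12 NRF2 targets 1 passed, Taldo1, at 0.47 ± 0.12 (adjusted p = 0.0461), where 10.8% of all features passed. That call held in 1 of 9 fits that each left out an array (up to 0.111). In HFD+APS against HFD none of these 4 lists had a call. The genes with an unadjusted p under 0.05 numbered 1 of 6, 2 of 7, 1 of 17 and 4 of 12 in the same order, against 3122 of all 17632 features.

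Among other conjugating enzymes in HFD against chow, Tpmt, which methylates thiopurines, rose by 0.82 ± 0.13 (adjusted p = 0.012), and the call held without each array in turn. Acsm3 rose by 0.76 ± 0.19 (0.0412), a call that held in 3 of 9 such fits (up to 0.125). Nat8, which acetylates cysteine conjugates, fell, with a difference of -0.64 ± 0.12 (0.0201), and leaving out chow 2, chow 3 or HFD 3 ended its call (up to 0.0648). None of 6 deconjugating enzymes passed in HFD against chow, where 1 had an unadjusted p under 0.05, as did 5511 of all 17632 features. Arsa, a lysosomal sulfatase, was lower by 0.62 in HFD+APS against HFD (adjusted p = 0.0455), a call that held in 0 of 9 such fits (0.0544 to 0.142).

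Of 16 phase I genes 1 rose and 1 fell on HFD, where 4.3% and 6.48% of all features did. Cyp2b10, a CAR target, rose by 3.21 ± 0.49 (adjusted p = 0.0121) and lost its call without chow 2 (0.0512). Cyp3a11, a PXR target, fell on HFD by 2.03 ± 0.41 (0.0241), which was lost without chow 2 or chow 3 (up to 0.0823). It was higher by 2.28 ± 0.41 in HFD+APS than in HFD (0.0411), a call that held in 1 of 9 such fits (up to 0.13).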

How the data were processed

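Liver RNA of 9 mice was hybridised to Agilent 1-colour arrays of 60-base probes. Per the file headers, the authors' Feature Extraction software (10.7.1.1; 10.7 in the submitters' processing notes) gave the processed signal, an intensity per spot, background-subtracted, with no step that sets arrays to a common scale. The authors' deposited table of all samples is on the log2 scale; its normalization is not given in the sources used here, and its columns, with medians of 4.98 to 5, had correlations of at least 0.9969 with log2 of the processed signal.

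Here, in R 4.3.3 (package data.table, version 1.17.8), spots marked non-uniform or population outliers and 1639 control spots were left out, and averaging replicate spots gave 41174 probes. The 75th percentile of an array (214.4 to 272.8) was subtracted after log2. Between 50.4% and 68.4% of probes were well above background per array, and precision is limited by how few arrays there are. Probes well above background on at least 3 of 9 arrays entered (26473), each gene by its brightest probe, which left 17632 features with 5 missing values. Probe names were updated through RefSeq.

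limma 3.58.1 (lmFit, eBayes) fitted the 3 groups together, with 6 residual and 2.3 prior degrees of freedom, and the test was 2-sided with Benjamini-Hochberg adjustment over all features. The 3 comparisons share groups. On simulated data for HFD against chow with 200 of 17632 features changed, 60% were recovered at a true log2 difference of 1 and 87% at 2, with 7 false calls. The fit of the real arrays called 1901 features in that comparison. The adjustment depends on the share of features that differ, so these percentages need not hold for the real arrays. Values on every array are given for members past the threshold, the 2 members of each family with the largest difference in each comparison, and a list of named enzymes. The members, lists and rules were chosen with earlier results of these data known. Replicate numbers did not pair the samples: deviations of same-numbered arrays correlated between -0.175 and 0.164. Slide 1 held chow, slide 2 HFD and HFD+APS 1, and slide 3 HFD+APS 2 and 3. Alternatives covered background correction, scaling, filters, probe summary, slide, replicate number, array weights, the variance prior and each array left out. Some results of the lists of other enzymes and transporters are not reported here.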

Additional observations from a re-analysis of the deposited data

How the results depend on the processing

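No difference past the threshold reversed its direction under the alternatives run. In HFD against chow 6 members passed, 15 did with array weights, and 4 to 8 when each array was left out. Of all features, the fits that left out an array called 334 to 2675. In HFD+APS against HFD 1 passed, and 8 did with array weights. It was 2 with an intensity trend in the variance prior and 2 with normexp, where 357 and 266 of all features passed. The count was 0 with no filter on dim probes and with only the 2 groups compared. It was also 0 with slide as a fixed block and within the slide of HFD and HFD+APS 1, but there the HFD+APS arm is 1 array and 17 and 0 of all features passed, so these counts say nothing about stability. Leaving out each array gave 0 to 1, where 51 to 571 of all features passed. In HFD+APS against chow 3 passed, 17 did with array weights and 5 with only the 2 groups compared. Among probes well above background on all 9 arrays 1 passed, Sult1e1 (adjusted p = 0.00388), where 845 features did. The Sult3a1 and Ugt1a9 probes were well above background on 7 arrays and did not enter that fit, so their calls were not tested in it. When each array was left out 1 to 7 passed, where 28 to 1561 of all features did. With the replicate number as a block, 0 members passed in HFD+APS against HFD, and Gstm2 there had an adjusted p of 0.0829; the samples share only a number.

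When each array was left out, the median difference in HFD against chow ranged from -0.32 to 0.12 for glutathione transferases, from -0.32 to -0.13 for glucuronosyltransferases and from 0.17 to 0.66 for sulfotransferases, with 0.12, -0.13 and 0.66 without HFD 3. In HFD+APS against HFD the median of the glutathione transferases ranged from -0.29 to 0.21. Sult2a7 lost its call in HFD against chow with no filter (adjusted p = 0.0711), only 2 groups (0.0557), the replicate block (0.0676) and slide as a random block (0.0773). Over all features, HFD against chow gave 1901 calls, and HFD+APS gave 244 against HFD and 629 against chow. In that order there were, with array weights, 3959, 2061 and 5020, with slide as a random block 677, 163 and 162, with no filter 806, 80 and 232, and with the replicate block 1311, 83 and 295. Only the 2 groups compared gave 25 calls in HFD+APS against HFD. The causes were not tested. Slide as a fixed block could be fitted for HFD+APS against HFD only. Dim probes limit Sult3a1, Sult1e1, Sult4a1, Ugt1a9 and Ugt8a.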
